A study of Mus musculus with 9 samples.

Results

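Stag3 siRNA was compared with no treatment in E14 cells, a line of wildtype mouse embryonic stem cells, over 6 of the 9 mRNA sequencing libraries of the series. The 6 libraries were those whose column of the count table named either the Stag3 knockdown (siStag3) or the untreated cells, 3 of each. All cells grew in 2i/LIF medium, which holds the naive state with the MEK inhibitor PD0325901, the GSK3 inhibitor CHIR99021 and the cytokine LIF. The siStag3 cells received 50 pmol of siRNA with a lipid reagent at seeding and again the next day, and were collected at 48 hours. Per the labels, the untreated cells received no treatment, so the comparison joins the loss of Stag3 to the transfection itself. The other 3 libraries are from cells given an siRNA against luciferase (siLuc) in the same way, and they are read here beside the siStag3 values to mark which differences from untreated cells are found with a control siRNA too. The labels call the samples biological replicates of 1 cell line. Their genotype entries are wildtype for the untreated cells, siLuc control and Stag3 knockdown.

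Cohesin is a ring-shaped complex that holds sister chromatids together and folds chromatin into loops, and STAG3 is the STAG subunit found in its meiotic forms. The results turn on 3 regulatory systems. Liver X receptors (LXRs) are nuclear receptors that respond to oxidised sterols and switch on genes for cholesterol export. Hypoxia inducible factors switch on glycolytic enzymes and mitophagy genes when oxygen is short. The Wnt pathway acts through beta-catenin and TCF/LEF factors, and the GSK3 inhibitor of the medium stabilises beta-catenin, so its target genes are transcribed in naive cells.

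The libraries held 29332436 to 44527534 counts each, and 14246 of 16636 listed genes were tested. Each group had 2 libraries of a Set 1 and 1 library of a Set 3, names taken from the count table, whose meaning the labels do not give. The sets stood apart: the first principal component of the 9 libraries, 41.1% of the variance, put those of Set 1 between -20.46 and -2.70 and those of Set 3 between 17.09 and 39.87. The set was therefore a covariate in every fit unless another is named, and differences within each set are given beside the main values. Stem cell markers were high in both groups, with Pou5f1 at 851, 861 and 921 CPM (a count relative to the scaled total of its library) in untreated cells and 838, 830.4 and 958 in siStag3 cells, and Nanog at 657 ± 35.2 and 684 ± 69.4 (mean ± SD, n = 3). The summed CPM of fibroblast markers stayed between 1.78 and 3.11 in untreated and between 2.01 and 3.02 in siStag3 libraries, and that of 9 tested primitive endoderm markers, most of it from Sparc and Lama1, between 364.4 and 385.0 and between 341.5 and 370.7, with the group means of Gata4, Gata6 and Sox17 between 0.103 and 0.293 CPM.

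The siRNA lowered its target. Stag3 stood at 24.1, 24.3 and 28.6 CPM in the untreated libraries and at 13.5, 15.2 and 15.6 in the siStag3 libraries, in the order Set 1 experiment 1, Set 1 experiment 3 and Set 3, which is kept below. The groups did not overlap, and 57.6% of the untreated mean remained. The log2 fold change was -0.79 (SE 0.0717, adjusted p = 9.18e-05) by the quasi-likelihood test of edgeR, and the exact two-sided permutation test of the CPM gave p = 0.1, the smallest that 3 against 3 libraries allow. In siLuc cells Stag3 stood at 22.5, 23.3 and 26.7, and siStag3 was lower than siLuc by a log2 difference of -0.71 (95% interval -0.86 to -0.55, adjusted p = 0.00205). Without the set as a covariate the adjusted p of siStag3 against untreated was 0.0604. The somatic paralogs showed no change past the threshold in the main test, with log2 fold changes of 0.022 (SE 0.0646, adjusted p = 0.882) for Stag1 and 0.27 (SE 0.0881, adjusted p = 0.134) for Stag2. Stag2 passed in siLuc against untreated cells, at 0.36 (SE 0.0880, adjusted p = 0.0394). For siStag3, Stag2 passed in the Set 1 libraries alone, at 0.38 (adjusted p = 0.0143), but not with a correction for GC content, at 0.14 (adjusted p = 0.0729).

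Between siStag3 and untreated cells, 361 genes passed an adjusted p of 0.05, which is 2.53% of those tested: 153 were higher (1.07%) and 208 lower (1.46%) in siStag3 cells. The median size of these differences was 0.50 on the log2 scale, and 31 were at least 2-fold, 15 higher and 16 lower. All 361 had the same sign within Set 1 and within Set 3. They were called over both sets together, which favours this, so it is no separate check. The CPM of the groups did not overlap for 226 of the 361, against 10% of all tested genes. The same test of siLuc against the same untreated libraries gave 598 genes (4.2%), 235 higher (1.65%) and 363 lower (2.55%), and 199 of the 361 were among them, 55.1% of the siStag3 list and 33.3% of the siLuc list. Both comparisons use the same 3 untreated libraries, so their calls are not independent. The siLuc count ran from 111 to 2458 when 1 library was left out, so these shares hold for the main test alone. With the experiment as a replicate block the siLuc count was 86, but there the Set 3 library of siLuc drops out. That library carries experiment 1 and the other Set 3 libraries experiment 5, so it alone fits the set term. The remaining 162 genes are not thereby shown to differ between the siRNAs: tested directly, siStag3 against siLuc gave 4 genes (0.0281%), and Stag3 was the one of the 361 among them. The other calls, Glrx (0.53), Rbm47 (-0.57) and Tmem50a (0.50), were at 0.052, -0.16 and 0.049 in siStag3 against untreated cells, none past the threshold there.

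The number of genes called moved with single libraries and with the set. It was 2 without the set as a covariate (Abcg1 and Mylip), 949 in the Set 1 libraries alone and 1591 without the Set 3 library of siStag3. Leaving out other single libraries of the comparison gave 78 genes (without siStag3 Set 1 experiment 1), 187 (without siStag3 Set 1 experiment 3), 90 (without untreated Set 3), 211 (without untreated Set 1 experiment 3) and 217 (without untreated Set 1 experiment 1). Scaling by the total count alone, in place of the TMM factors of edgeR, gave 100 higher and 256 lower genes. Base composition moved with the comparison as well: over 14226 genes, which share the same 6 libraries and are not replicates, the log2 fold change and the GC content of the transcript had a Spearman correlation of -0.31, and 0.034 after a correction by GC bins. With that correction 932 genes passed (6.54%), 357 of the 361 among them. The part of base composition, and of RNA or library quality, in the single differences was not tested.

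**Figure D1:**
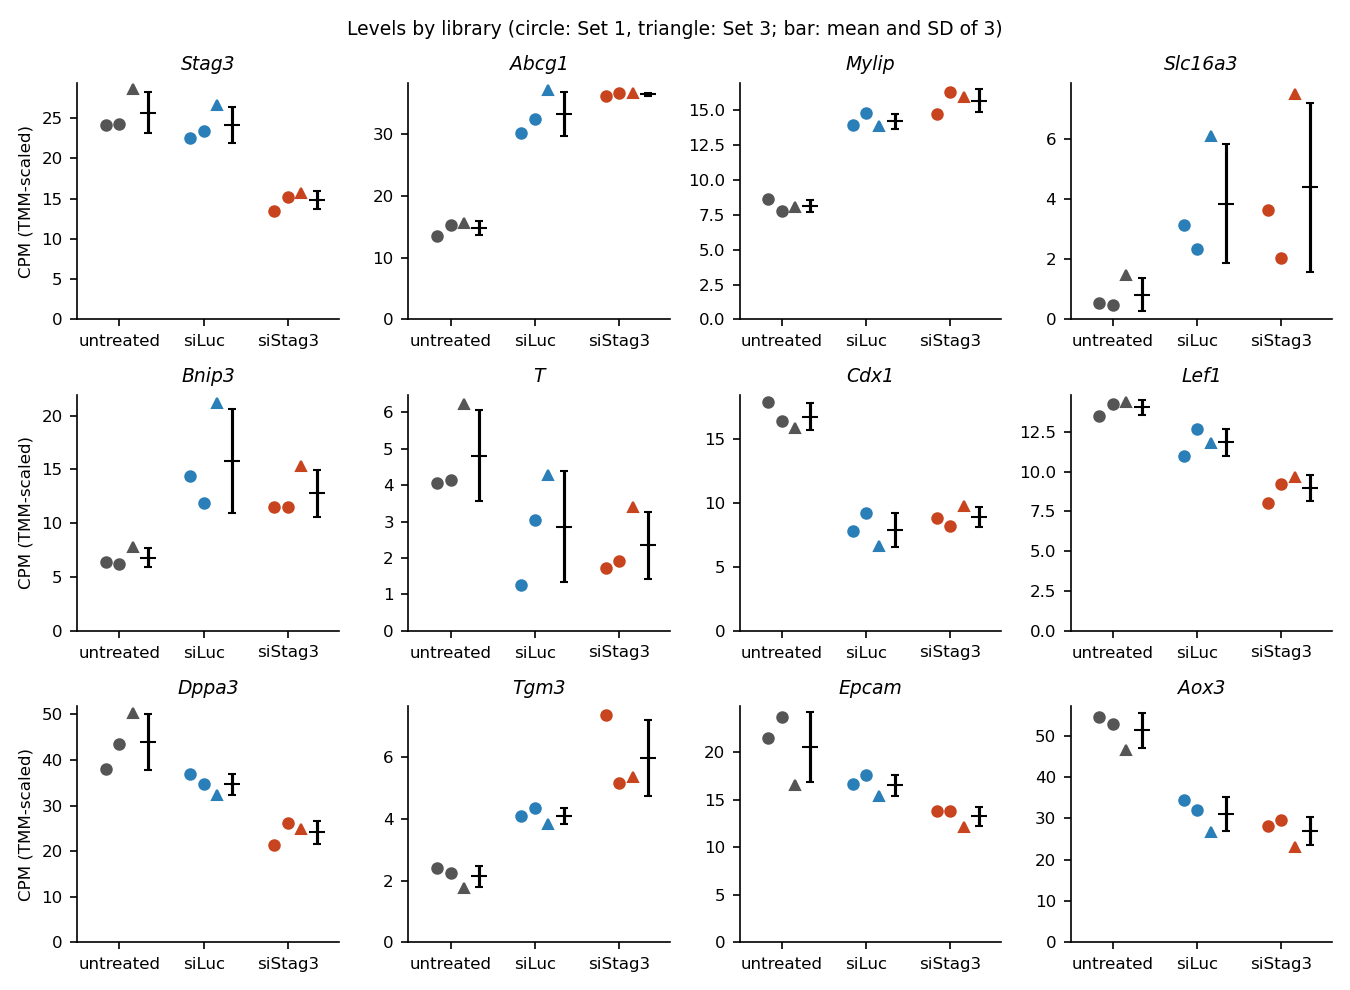
CPM of 12 genes in each of the 9 libraries, by group (untreated, siLuc, siStag3). Circles are Set 1 and triangles Set 3 libraries, and the bars give the mean and SD of 3 libraries on axes that start at 0. Stag3 is lower in siStag3 cells than in the other groups, whereas Abcg1, Mylip, Slc16a3 and Bnip3 are higher, and Cdx1 and Aox3 lower, in both transfected groups than in untreated cells.

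LXR targets held the smallest p-value of the comparison. Of 13 tested targets, 6 were higher and 1 lower in siStag3 cells, against 2.53% of all genes called in either direction. The list median was 0.33 on the log2 scale (-0.01 for all genes), and 0.029 without untreated Set 1 experiment 1. The list was split, with 7 of the 13 positive (53.8%, against 48.6% of all genes). The median is thus the smallest of the positive values and shows no shift of the whole list. Abcg1, an ABC transporter that moves cholesterol out of the cell onto lipoprotein particles, stood at 13.5, 15.4 and 15.7 CPM in untreated and 36.2, 36.7 and 36.7 in siStag3 libraries. Every siStag3 library was above every untreated one, and the log2 fold change was 1.30 (SE 0.0766, adjusted p = 1.93e-06), a fold of 2.46. In siLuc cells it stood at 30.3, 32.5 and 37.2, and the siStag3 minus siLuc difference was 0.14 (95% interval -0.021 to 0.29, adjusted p = 0.667).

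Abca1, the transporter that loads cholesterol onto apolipoprotein A-I, went from 49.6, 45.5 and 26 to 107, 109 and 45.2 CPM. Its Set 3 libraries were lower than its Set 1 libraries in both groups, so the groups overlap across sets but not within them, and the log2 fold change was 1.07 (SE 0.114, adjusted p = 0.00092). Abca1 stood at 87.2, 107 and 60.2 CPM in siLuc cells, a log2 fold change of 1.09 (SE 0.113, adjusted p = 0.00106). The siStag3 minus siLuc difference of Abca1 was -0.022 (95% interval -0.27 to 0.22, adjusted p = 0.964). Mylip, a ubiquitin ligase that limits the uptake of cholesterol, rose from 8.64, 7.77 and 8.04 to 14.8, 16.4 and 16 CPM with no overlap. Its log2 fold change was 0.94 (SE 0.0853, adjusted p = 9.18e-05), with 0.80 (SE 0.0856, adjusted p = 0.000378) in siLuc cells.

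Among the lipid synthesis targets, the fatty acid desaturase genes rose in every siStag3 library: Scd1 stood at 224, 217 and 168 CPM in untreated and 336, 326 and 227 in siStag3 cells, a log2 fold change of 0.54 (SE 0.0590, adjusted p = 0.000351). Scd2 had one of 0.34 (SE 0.0594, adjusted p = 0.00725). Both passed in siLuc cells, Scd1 at 0.47 (SE 0.0590, adjusted p = 0.00106) and Scd2 at 0.46 (SE 0.0595, adjusted p = 0.00121). Srebf1, which encodes a transcription factor of lipid synthesis, passed narrowly at 0.35 (SE 0.0858, adjusted p = 0.0486) with no overlap, and was at 0.17 (SE 0.0859, adjusted p = 0.219) in siLuc cells. Lpl, which encodes lipoprotein lipase, went the other way, from 60.0, 66.5 and 39.9 to 48.4, 46.1 and 27.4 CPM and a log2 fold change of -0.46 (SE 0.0729, adjusted p = 0.00428). It stood at 60.3, 53.4 and 38.6 in siLuc cells, a log2 fold change of -0.12 (SE 0.0722, adjusted p = 0.295), and siStag3 against siLuc gave -0.34 (95% interval -0.50 to -0.18, adjusted p = 0.221). Fasn, Apoe, Pltp, Lpcat3, Arl4c and Nr1h3, which encodes LXR alpha, did not pass, with values from -0.30 to 0.33. In siLuc cells 5 of the 13 targets were higher and 1, Apoe, lower, against 1.65% and 2.55% of all genes, with a list median of 0.03. There too 7 of the 13 were positive. When each library was left out in turn, 4 to 6 targets were higher, while Lpl missed the threshold without untreated Set 3 (adjusted p = 0.0515) and Scd2 without siStag3 Set 1 experiment 1 (adjusted p = 0.0663). The call on Srebf1 was lost in 6 of the 9 such fits (adjusted p up to 0.231): without any 1 of the 3 untreated libraries, siStag3 Set 1 experiment 1, siStag3 Set 3 or siLuc Set 1 experiment 1.

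None of 26 tested genes of cholesterol synthesis and uptake passed in siStag3 cells, with a median of -0.10. In siLuc cells the list median was -0.12. The genes whose levels followed Abcg1 most closely over the 9 libraries, with set means removed, were Rnf145 (Pearson r 0.989), Manba (0.989), Gsr (0.985), Vwa3b (0.983) and Scd1 (0.981), against a median of -0.038 over 11229 genes. They were picked as the largest values. The difference between untreated and transfected cells enters each, so no link beyond that difference is shown. Rnf145, which encodes a ubiquitin ligase of the endoplasmic reticulum, had CPM of 37.5, 37.2 and 36.7 in untreated, 51.5, 55.8 and 52.9 in siLuc and 53.8, 57.9 and 52.7 in siStag3 libraries.

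Of 22 tested genes of glycolysis and lactate export, 9 were higher and none was lower in siStag3 cells, against 1.07% and 1.46% of all genes, and the list median was 0.22. In siLuc cells 6 were higher and none lower, against 1.65% and 2.55% of all genes there, with a median of 0.17. Slc16a3, which encodes the lactate exporter MCT4, had the largest rise of all genes called, from 0.533, 0.473 and 1.47 to 3.62, 2.05 and 7.49 CPM. The level is low and differs by set, but each siStag3 library was above every untreated one, and the log2 fold change was 2.40 (SE 0.222, adjusted p = 9.96e-05). In siLuc cells it was at 3.12, 2.35 and 6.08 CPM, with a log2 fold change of 2.24 (SE 0.225, adjusted p = 0.000335), and the siStag3 minus siLuc difference was 0.16 (95% interval -0.24 to 0.56, adjusted p = 0.833).

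Ldha, which encodes the lactate dehydrogenase subunit that favours lactate, rose from 215, 211 and 257 to 317, 323 and 368 CPM, a log2 fold change of 0.57 (SE 0.0534, adjusted p = 9.96e-05). Pdk1, whose kinase keeps pyruvate out of the mitochondrion by inhibiting pyruvate dehydrogenase, rose from 31.6, 35.2 and 26.1 to 49.8, 47.4 and 39.1, a log2 fold change of 0.56 (SE 0.0726, adjusted p = 0.00112). Both had no overlap, and both passed in siLuc cells, at 0.49 and 0.67. The other enzymes that rose were Pfkl (0.53) and Pfkp (0.29), phosphofructokinases of liver and platelet type, Tpi1 (0.43), Pgk1 (0.33) and Pgam1 (0.26), with the glucose transporter Slc2a1 (0.27). Pfkp, Pgam1 and Slc2a1 were not past the threshold in siLuc cells, where their log2 fold changes were 0.18, 0.17 and 0.19; their siStag3 against siLuc values were 0.11, 0.086 and 0.079, none past the threshold. The abundant Gapdh stood at 4184, 4249 and 4656 CPM in untreated and 4236, 4396 and 4993 in siStag3 cells, and did not pass (log2 fold change 0.057, SE 0.0606, adjusted p = 0.66).

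Hypoxia targets outside glycolysis gave 2 higher and no lower genes of 19 tested, against 1.07% and 1.46% of all genes, with a median of 0.18. In siLuc cells 3 were higher and none lower, against 1.65% and 2.55% of all genes there, with a median of 0.25. Bnip3, a mitophagy receptor of the outer mitochondrial membrane, rose from 6.37, 6.23 and 7.82 to 11.5, 11.5 and 15.3 CPM, a log2 fold change of 0.91 (SE 0.106, adjusted p = 0.000576). In siLuc cells it stood at 14.4, 11.8 and 21.2, and siStag3 against siLuc did not pass (-0.29, 95% interval -0.51 to -0.07, adjusted p = 0.493). Ndrg1, a stress-responsive gene, rose from 15.2, 13.3 and 14.8 to 19.8, 17.2 and 23.8, a log2 fold change of 0.49 (SE 0.0924, adjusted p = 0.0133). Vegfa, the vascular growth factor, was at 0.10 (adjusted p = 0.52), and the oxygen sensor Egln3 at -0.067 (adjusted p = 0.841). The 9 glycolysis calls became 5 without untreated Set 3 and 5 without siStag3 Set 1 experiment 1; Ndrg1 missed the threshold without either of these libraries or without untreated Set 1 experiment 3 (adjusted p up to 0.127). Pgk1 and Pgam1 missed it without either of the first pair (adjusted p up to 0.0524 and 0.116), as did Pfkp and Slc2a1, which also missed it without untreated Set 1 experiment 3 (up to 0.187 and 0.178). With the GC correction 14 of 22 glycolysis genes and 6 of 19 hypoxia targets were higher.

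Promoters of 3 of these genes are shown because they hold the core of the hypoxia response element, ACGTG, in the bases just before the start of transcription. The windows are the 250 bases before the RefSeq start in GRCm38.p6, each on the strand of its gene, with every ACGTG of either strand in capitals (CACGT is the same motif on the other strand).
Slc16a3 at chr11:120948817-120949066, plus strand: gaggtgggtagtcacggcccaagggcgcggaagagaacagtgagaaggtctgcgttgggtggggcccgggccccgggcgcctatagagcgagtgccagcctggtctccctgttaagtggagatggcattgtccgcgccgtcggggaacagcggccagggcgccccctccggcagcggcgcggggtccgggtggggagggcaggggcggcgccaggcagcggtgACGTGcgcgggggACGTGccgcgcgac
Bnip3 at chr7:138909507-138909756, minus strand: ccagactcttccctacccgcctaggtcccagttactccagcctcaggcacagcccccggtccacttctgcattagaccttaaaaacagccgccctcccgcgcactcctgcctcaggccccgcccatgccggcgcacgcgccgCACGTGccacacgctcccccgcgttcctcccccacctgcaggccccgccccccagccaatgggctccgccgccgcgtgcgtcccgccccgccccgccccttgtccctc
Pgk1 at chrX:106186850-106187099, plus strand: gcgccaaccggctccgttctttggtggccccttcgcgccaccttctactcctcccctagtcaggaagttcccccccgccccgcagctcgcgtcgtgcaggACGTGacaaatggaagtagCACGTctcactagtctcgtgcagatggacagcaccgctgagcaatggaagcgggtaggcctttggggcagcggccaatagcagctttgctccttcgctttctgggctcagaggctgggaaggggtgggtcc
The Bnip3 window holds 1 palindrome that reads as the motif on both strands. Of the 11 genes of both lists that passed, 10 have a window in the table and 6 of these hold the motif. Of the 30 tested genes that did not pass, 27 have a window and 17 hold it, against 16.6% of all 32851 windows. These are 60% of the members that passed and 63.0% of those that did not. Members are counted by gene, with the motif in any window of the gene. The 16.6% is counted by window, over all windows and not the tested genes alone, so the measures are unlike.

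Of 16 tested Wnt targets, 7 were lower and none was higher in siStag3 cells, with a list median of -0.49, against 1.46% of all genes called lower. In siLuc cells 5 were lower and none higher, against 2.55% and 1.65% of all genes there, with a median of -0.43. T, which encodes the mesoderm factor Brachyury, stood at 4.07, 4.14 and 6.24 CPM in untreated and 1.71, 1.92 and 3.40 in siStag3 libraries. Every siStag3 library was below every untreated one, at low levels, and the log2 fold change was -1.06 (SE 0.226, adjusted p = 0.0294). In siLuc cells T stood at 1.27, 3.04 and 4.28, a log2 fold change of -0.77 (SE 0.219, adjusted p = 0.0651), and siStag3 against siLuc gave -0.29 (95% interval -0.82 to 0.23, adjusted p = 0.769). The call on T was lost without any 1 of 5 libraries: each of the 3 untreated ones and both Set 1 libraries of siStag3 (adjusted p up to 0.173). In bulk samples, fewer cells expressing a gene and less RNA per cell cannot be told apart.

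Cdx1, a caudal-type homeobox gene, fell from 17.9, 16.4 and 15.9 to 8.79, 8.22 and 9.77 CPM, a log2 fold change of -0.90 (SE 0.113, adjusted p = 0.000865), and stood at 7.80, 9.24 and 6.62 in siLuc cells. Cdx2, its relative and a regulator of trophectoderm, fell from 0.982, 1.21 and 2.02 to 0.421, 0.756 and 0.759, a log2 fold change of -1.11 (SE 0.258, adjusted p = 0.0379). Cdx2 is low, in libraries where 3 counts equal 0.065 to 0.099 CPM, and its call was lost in 5 of the 9 fits that leave out 1 library (without untreated Set 1 experiment 3, untreated Set 3, siLuc Set 1 experiment 1, siStag3 Set 1 experiment 1 or siStag3 Set 3; adjusted p up to 0.266) and with DESeq2 (adjusted p = 0.0531).

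The feedback genes of the pathway are more abundant. Axin2, a scaffold of the complex that degrades beta-catenin, fell from 101, 96.7 and 111 to 65.8, 64.8 and 89.8 CPM, a log2 fold change of -0.50 (SE 0.0719, adjusted p = 0.00237). Sp5, a zinc finger factor that Wnt switches on directly, fell from 78.1, 75.8 and 86.5 to 46.7, 45.5 and 67.3, a log2 fold change of -0.61 (SE 0.0904, adjusted p = 0.00328). Both had lower values in siLuc cells too, with log2 fold changes of -0.42 (SE 0.0717, adjusted p = 0.00747) and -0.60 (SE 0.0903, adjusted p = 0.0037). Apcdd1, a membrane inhibitor of Wnt signalling, fell with a log2 fold change of -0.69 (SE 0.109, adjusted p = 0.00401). It fell in siLuc cells too, with a log2 fold change of -0.83 (SE 0.110, adjusted p = 0.00141). Its call in siStag3 cells was lost without siStag3 Set 1 experiment 1 (adjusted p = 0.0521).

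Lef1, a TCF/LEF factor and itself a target, had its lowest values in siStag3 cells. It stood at 13.5, 14.2 and 14.4 CPM in untreated, 11, 12.7 and 11.8 in siLuc and 8.04, 9.23 and 9.64 in siStag3 libraries, and the 3 groups did not overlap. The log2 fold change from untreated cells was -0.65 (SE 0.0931, adjusted p = 0.00234) in siStag3 and -0.24 (SE 0.0910, adjusted p = 0.112) in siLuc cells. The direct difference between the siRNAs was -0.40 (95% interval -0.61 to -0.20, adjusted p = 0.267), which did not pass. Tcf7, Znrf3, Tnfrsf19, Nkd1, Rnf43, Dkk1, Ascl2 and Notum did not pass, nor did Ccnd1, which was at 0.20 (SE 0.0508, adjusted p = 0.0503). Notum, a secreted Wnt inhibitor, was at 65.6, 59.5 and 99.8 CPM in untreated, at 44.1, 47.9 and 72.8 in siLuc and at 56.5, 55.3 and 114 in siStag3 libraries, lower in siLuc cells (log2 fold change -0.45, SE 0.0808, adjusted p = 0.0108) and at -0.036 (SE 0.0802, adjusted p = 0.841) in siStag3 cells. The 7 falls became 4 without siStag3 Set 1 experiment 1, and 5 without untreated Set 3, without untreated Set 1 experiment 3 or in Set 1 alone.

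The promoters of T and Sp5 are shown because they hold the core of the TCF/LEF site, CTTTGA, in the same 250-base window, with the motif on either strand in capitals (TCAAAG is the motif on the other strand).
T at chr17:8434173-8434422, plus strand: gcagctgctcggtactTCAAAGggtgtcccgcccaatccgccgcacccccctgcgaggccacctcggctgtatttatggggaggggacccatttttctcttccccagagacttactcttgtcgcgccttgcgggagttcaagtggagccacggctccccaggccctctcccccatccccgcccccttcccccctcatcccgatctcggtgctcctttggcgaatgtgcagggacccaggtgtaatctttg
Sp5 at chr2:70474673-70474922, plus strand: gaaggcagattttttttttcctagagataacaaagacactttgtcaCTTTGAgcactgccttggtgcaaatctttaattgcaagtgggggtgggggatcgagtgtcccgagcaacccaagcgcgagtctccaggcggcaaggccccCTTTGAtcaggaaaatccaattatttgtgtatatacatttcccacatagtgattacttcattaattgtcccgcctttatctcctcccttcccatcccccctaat
Sp5 holds it at 204 and 104 bases before the start and T at 234. Of the 7 genes that fell, 5 have a window and 3 of these hold the motif. Of the 9 others tested, 6 have a window and 2 hold it, against 13.8% of all windows. The genes are again counted by gene and the 13.8% by window, so the measures are unlike.

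**Figure D2:**
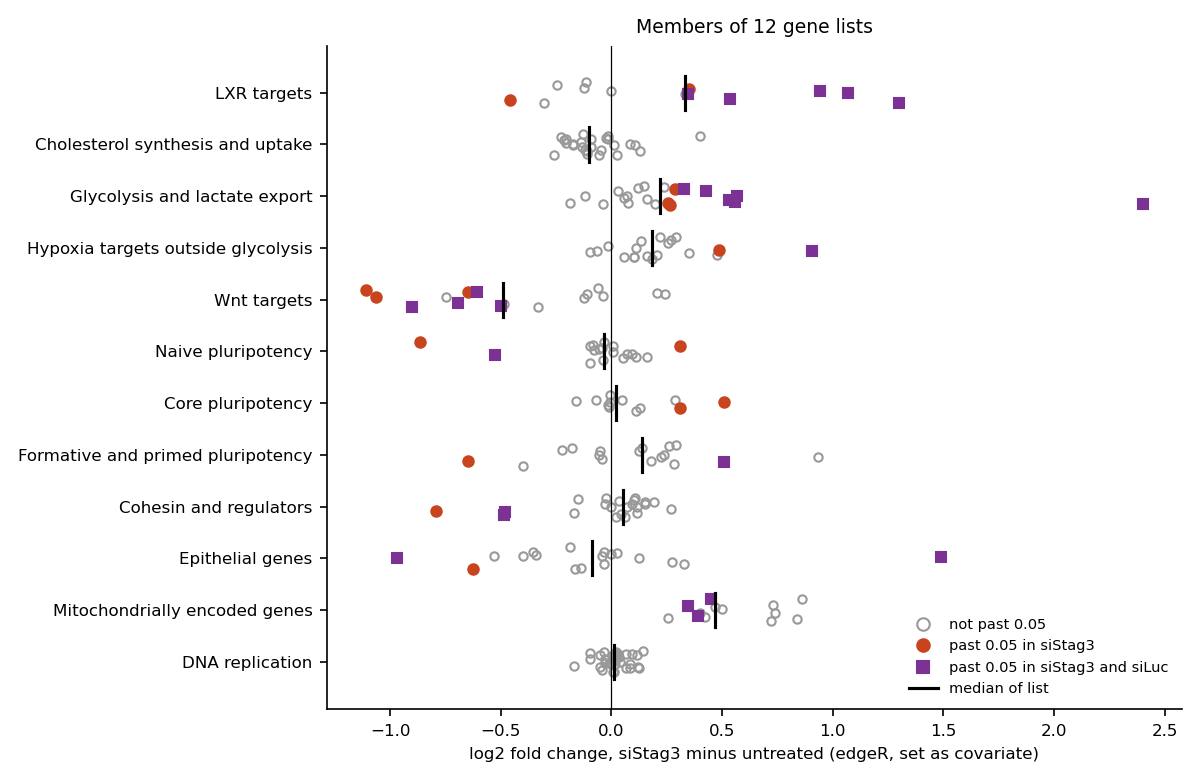
Log2 fold change of siStag3 against untreated cells for each tested member of 12 gene lists, 1 point a gene. Grey open circles did not pass an adjusted p of 0.05, red circles passed, purple squares also passed in siLuc against the same untreated libraries, and black bars are list medians. LXR targets and glycolysis hold members to the right of 0 and Wnt targets to the left, while DNA replication genes stay near 0.

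Most naive pluripotency genes did not pass. Of 18 tested naive pluripotency genes, 1 was higher and 2 lower, against 1.07% and 1.46% of all genes. Dppa3, also called Stella, a maternal and germ cell factor that keeps DNA methylation low, stood at 38.1, 43.5 and 50.4 CPM in untreated, 37, 34.7 and 32.3 in siLuc and 21.4, 26.2 and 25 in siStag3 libraries. The siStag3 libraries were below all others, and the log2 fold change from untreated cells was -0.86 (SE 0.102, adjusted p = 0.000781), against -0.34 (SE 0.100, adjusted p = 0.0659) in siLuc cells. The direct difference of siStag3 and siLuc was -0.52 (95% interval -0.75 to -0.30, adjusted p = 0.168). Gbx2, a homeobox target of LIF signalling, fell from 21.8, 22.2 and 20.4 to 15.2, 16.4 and 13.3 CPM (log2 fold change -0.53, SE 0.0819, adjusted p = 0.00363) and in siLuc cells to 17.1, 17.1 and 12.5. Tdgf1, the Nodal co-receptor Cripto, rose from 319, 346 and 311 to 417, 422 and 372 (log2 fold change 0.31, SE 0.0584, adjusted p = 0.0127). Nanog, Klf4, Esrrb, Tfcp2l1, Zfp42 and Klf2 did not pass, with log2 fold changes from -0.10 to 0.16.

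Among 12 core pluripotency genes Tdgf1 and Utf1, a chromatin factor of stem cells, were higher, against 1.07% of all genes. Utf1 was at 0.51 (SE 0.116, adjusted p = 0.0428). Of 17 formative and primed genes, 1 was higher and 1 lower, against 1.07% and 1.46% of all genes. Otx2, the homeobox gene of the exit from naive pluripotency, was higher (log2 fold change 0.51, SE 0.0857, adjusted p = 0.00638) and Lef1 lower. Otx2 stood at 11.6, 12 and 22.5 CPM in untreated, 17, 14.1 and 34.5 in siLuc and 16.5, 15.4 and 34.7 in siStag3 libraries, so both transfected groups were above untreated cells within each set. Fgf5, a marker of the primed state, was listed near the depth limit, at 0.174 ± 0.124 and 0.323 ± 0.0954 CPM, and did not pass. Of the MEK-ERK response genes, Egr1, an early gene, fell (log2 fold change -0.67, SE 0.0903, adjusted p = 0.00182); its Set 3 levels were below its Set 1 levels in all groups, at 171, 173 and 44.4 CPM in untreated and 106, 118 and 25.8 in siStag3 libraries. Ier2, another early gene, fell with a log2 fold change of -0.30. Both passed in siLuc cells, Egr1 at -0.69 and Ier2 at -0.42, and with the GC correction neither passed in siStag3 cells (adjusted p = 0.0687 and 0.0742). Etv4, an ETS factor downstream of ERK, rose with a log2 fold change of 0.34. Without untreated Set 3 the calls on Gbx2, Tdgf1, Utf1, Otx2, Ier2 and Etv4 were all lost, and so they were without siStag3 Set 1 experiment 1; over the 9 fits that leave out 1 library the highest adjusted p was 0.0614 for Gbx2, 0.0983 for Tdgf1, 0.215 for Utf1, 0.0900 for Otx2, 0.183 for Ier2 and 0.118 for Etv4.

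Besides the target, the cohesin list held 2 calls. Of 22 genes tested, 3 were lower (Stag3, Rec8 and Pttg1) and none higher, against 1.46% and 1.07% of all genes. Rec8, the kleisin subunit of meiotic cohesin, fell from 17.3, 17 and 23.9 to 11.4, 12 and 18.6 CPM, a log2 fold change of -0.48 (SE 0.0820, adjusted p = 0.0072), and Pttg1, which encodes securin, fell with one of -0.49 (SE 0.0855, adjusted p = 0.00834). Both passed in siLuc cells as well, at -0.35 and -0.38. The core subunits Smc1a, Smc3 and Rad21 were at 0.033, -0.027 and 0.11, none past the threshold. Without siStag3 Set 1 experiment 1 the adjusted p of Rec8 was 0.0785, and the call on Pttg1 was lost without that library or without untreated Set 3 (adjusted p up to 0.114). Of 21 germline and synaptonemal genes, 1 was higher and 2 lower, against 1.07% and 1.46% of all genes. Stra8, which opens meiosis, fell from 14.4, 17 and 14.6 to 9.81, 9.64 and 6.96 CPM (log2 fold change -0.82, SE 0.112, adjusted p = 0.00156). It passed in siLuc cells as well (log2 fold change -0.60, SE 0.111, adjusted p = 0.0118), and siStag3 against siLuc did not pass (-0.22, 95% interval -0.47 to 0.028, adjusted p = 0.661). Nanos3, a germ cell RNA-binding factor, was lower at -0.81 (SE 0.195, adjusted p = 0.0452) and the RNA helicase gene Ddx4 higher at 0.58 (SE 0.142, adjusted p = 0.0466); each of these 2 calls was lost in 7 of the 9 fits that leave out 1 library, and that on Ddx4 with the experiment as a replicate block (adjusted p = 0.0555).

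Epithelial genes were split: of 18 tested, 1 was higher and 2 lower, against 1.07% and 1.46% of all genes. Tgm3, which encodes a transglutaminase that cross-links proteins of the epidermis, stood at 2.41, 2.25 and 1.76 CPM in untreated, 4.07, 4.33 and 3.81 in siLuc and 7.36, 5.17 and 5.35 in siStag3 libraries. The 3 groups did not overlap, and the log2 fold change was 1.49 (SE 0.148, adjusted p = 0.000149) in siStag3 and 0.94 (SE 0.152, adjusted p = 0.00519) in siLuc cells. The direct difference was 0.55 (95% interval 0.25 to 0.85, adjusted p = 0.375). Epcam, a surface adhesion protein of epithelial and stem cells, fell from 21.4, 23.7 and 16.5 to 13.9, 13.8 and 12.1 CPM (log2 fold change -0.62, SE 0.0842, adjusted p = 0.00141), and Lad1, which encodes a basement membrane filament protein, from 5.92, 4.93 and 7.02 to 3.26, 2.27 and 3.60 (log2 fold change -0.97, SE 0.151, adjusted p = 0.00362). The other 15 of 18 tested genes did not pass, among them Cdh1, which encodes E-cadherin, at -0.0002. Lad1 passed narrowly in siLuc cells too (log2 fold change -0.55, SE 0.146, adjusted p = 0.0498). In siStag3 cells Lad1 missed the threshold without untreated Set 3 (adjusted p = 0.0628).

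Mitochondrially encoded transcripts had positive log2 fold changes in all 13 cases, with a median of 0.47, and 3 of them passed, against 1.07% of all genes called higher: mt-Nd5 (log2 fold change 0.45, SE 0.0691, adjusted p = 0.00331), mt-Nd4l (log2 fold change 0.39, SE 0.0636, adjusted p = 0.00525) and mt-Co1 (log2 fold change 0.35, SE 0.0671, adjusted p = 0.0145). mt-Nd5 stood at 2567, 2531 and 1629 CPM in untreated and 3658, 3516 and 2095 in siStag3 libraries, so Set 3 was lower than Set 1 in both groups. In siLuc cells all 13 were positive too, with a median of 0.64, and 5 passed, against 1.65% of all genes called higher there. In siStag3 against siLuc 1 of the 13 was positive and the median was -0.20, with none past the threshold. Mitochondrial genes took 3.48% to 5.33% of the counts in untreated, 5.98% to 6.73% in siLuc and 4.10% to 6.78% in siStag3 libraries. Their median GC content of 37.1% is below the 49.6% of all genes, and with the GC correction the median was 0.34 and 7 passed. The count was 1 without untreated Set 3 or without siStag3 Set 1 experiment 1, and 8 without the Set 3 library of siStag3. Of 82 nuclear genes of the respiratory chain, 1 was lower (Cox6b2, a testis-type subunit of cytochrome oxidase) and none higher. This is 1.22% of the list, against 1.46% of all genes called lower, and the list median was 0.01. The call on Cox6b2 was lost in 6 of the 9 fits that leave out 1 library (adjusted p up to 0.292) and with the replicate block (adjusted p = 0.0662).

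In the integrated stress response, 2 of 23 genes were higher, against 1.07% of all genes. Atf3, a stress-induced transcription factor, went from 0.365, 0.561 and 0.282 to 1.12, 1.67 and 0.825 CPM (log2 fold change 1.56, SE 0.293, adjusted p = 0.0123) at low levels. The amino acid transporter gene Slc7a3 was at 0.22 (SE 0.0515, adjusted p = 0.0392). Atf3 stood at 0.796, 0.773 and 0.252 in siLuc cells, and its siStag3 against siLuc difference was 1.01 (95% interval 0.41 to 1.61, adjusted p = 0.394). Of 17 genes of interferon and double-stranded RNA sensing, Ddx58, which encodes the RNA sensor RIG-I, was the one that passed, rising from 40.3, 40.0 and 36.8 to 51.8, 49.9 and 49 CPM (log2 fold change 0.37, SE 0.0602, adjusted p = 0.00557), and it stood at 53.8, 49.5 and 47.5 in siLuc cells. This single call is 5.88% of the list, against 1.07% of all genes called higher. None of the 34 microRNA pathway and P-body genes, 35 DNA replication genes, 33 mitosis genes, 85 cytosolic ribosomal protein genes or 27 DNA methylation and polycomb genes passed in either direction in the main test. Of the mitosis genes 26 were positive (78.8%, against 48.6% of all genes). They gave 6 higher in Set 1 alone and 9 without the Set 3 library of siStag3, where 454 and 797 of all genes were higher. Each of the other lists gave at most 3 higher and 2 lower when 1 library was left out. Of 14 tested YAP and SRF targets 2 were lower, against 1.46% of all genes. These were the matricellular genes Ccn1 (log2 fold change -0.54, SE 0.0803, adjusted p = 0.00266) and Ccn2 (log2 fold change -0.35, SE 0.0809, adjusted p = 0.0361), and both passed in siLuc cells. Without untreated Set 3 the calls on Atf3, Slc7a3, Ddx58 and Ccn2 were lost, and all of these but Atf3 also without siStag3 Set 1 experiment 1; over the fits that leave out 1 library the highest adjusted p was 0.0669 for Atf3, 0.160 for Slc7a3, 0.0642 for Ddx58 and 0.255 for Ccn2.

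Of 16 tested imprinted genes, which are transcribed from 1 parental copy, 4 passed, against 2.53% of all genes. Mest, an alpha/beta hydrolase gene of the paternal copy, rose from 53.3, 58.1 and 39.8 to 77, 74.7 and 61.6 CPM (log2 fold change 0.50, SE 0.0665, adjusted p = 0.0012), and stood at 73, 73.1 and 62.7 in siLuc cells. Peg10, a retrotransposon-derived gene of the placenta, fell (log2 fold change -0.42, SE 0.0695, adjusted p = 0.00557), as did Igf2r, which encodes the receptor that clears IGF2 (log2 fold change -0.38, SE 0.0696, adjusted p = 0.0111), and Impact was higher (log2 fold change 0.30, SE 0.0729, adjusted p = 0.0452). Without siStag3 Set 1 experiment 1 the adjusted p of Peg10 was 0.0544, the call on Igf2r was lost without that library or without untreated Set 3 (adjusted p up to 0.114), and the call on Impact was lost in 7 of the 9 such fits. Single genes passed in the p53, lysosomal, redox and initiation factor lists: of 24 p53 targets Sesn1 (-0.26), of 32 lysosomal genes Plin2, a lipid droplet coat gene (-0.31), of 19 NRF2 and thiol redox genes Gclm, a subunit of the enzyme that starts glutathione synthesis (0.38), and of 56 translation initiation factors Eif1ax (0.41). They were 4.2%, 3.1%, 5.3% and 1.8% of their lists, against 2.53% of all genes, and 1 call is no result about a list. These 4 calls were lost in 6, 5, 2 and 4 of the 9 fits, and that on Sesn1 with the replicate block (adjusted p = 0.0630). Of 14 LIF-STAT3 genes Gbx2 alone passed, and of 353 zinc finger genes of the Zfp series Zfp469 (1.38), Zfp423 (0.75) and Zfp869 (-0.41), each lost without untreated Set 3 or siStag3 Set 1 experiment 1. The Zfp calls were 0.85% of that list, below the 2.53% of all genes, and the single Gbx2 call was 7.14% of the LIF-STAT3 list. None of 14 heat shock chaperone, 18 ER chaperone, 78 mitochondrial ribosomal protein, 40 histone or 4 tested genes of the 2-cell-like state passed. Each of these lists gave at most 1 call when 1 library was left out. Among markers of other lineages T passed of 5 for mesendoderm and Cdx2 of 7 for trophectoderm, and none of 5 for neuroectoderm, 9 for primitive endoderm or 4 for fibroblasts. The single calls on T and Cdx2 are 20% and 14.3% of these short lists, against 2.53% of all genes.

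Of the called genes, 196 had a mean log2 CPM of 1 or more, groups that did not overlap and the same sign in each set, and their 12 largest rises and falls are plotted. Outside the lists, the rises were Pof1b, an actin-binding gene of epithelia (1.03), Trim47, a RING-type ubiquitin ligase (0.94), Enox1 (0.92), Ccdc3 (0.91), Ccdc85a (0.89), Crtac1 (0.82) and Sned1 (0.81). Of these, Enox1, Ccdc3, Ccdc85a and Crtac1 passed in siLuc cells, with values of 0.91, 0.83, 0.94 and 0.90. Pof1b, Trim47 and Sned1 did not, at 0.39, 0.52 and 0.27, and their siStag3 against siLuc differences of 0.64 (95% interval 0.22 to 1.06, adjusted p = 0.446), 0.42 (95% interval 0.12 to 0.73, adjusted p = 0.465) and 0.55 (95% interval 0.18 to 0.91, adjusted p = 0.446) did not pass either. Trim47 stood at 2.22, 1.71 and 2.28 CPM in untreated and 3.34, 3.78 and 4.85 in siStag3 libraries, and its call was lost without untreated Set 3 (adjusted p = 0.0551).

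Of the falls outside the lists Aox3, which encodes an aldehyde oxidase, had the smallest p. It went from 54.6, 52.9 and 46.5 to 28.1, 29.6 and 23.2 CPM with no overlap, a log2 fold change of -0.93 (SE 0.0643, adjusted p = 7.26e-06), the second smallest p of the comparison, and stood at 34.5, 32.1 and 26.6 in siLuc cells. Bpifb5 (-1.14), Cnga4, a subunit of the olfactory cyclic nucleotide channel (-0.97), Tnni1, the slow skeletal troponin I (-0.91), the RhoGAP gene Syde2 (-0.90), Gbgt1 (-0.86) and Pramel12 (-0.81) were the others. Pramel12 belongs to a family of similar genes, between which counts may be split. Of these 7 genes all but Cnga4 passed in siLuc cells; Cnga4 stood at 4.77, 4.11 and 3.47 CPM in untreated, at 3.28, 3.45 and 2.43 in siLuc and at 1.97, 2.36 and 1.98 in siStag3 libraries. Leaving out untreated Set 3 or siStag3 Set 1 experiment 1 in turn took the call from Bpifb5, Tnni1, Gbgt1 and Crtac1 (adjusted p up to 0.098), and from Pof1b and Sned1 with further libraries (up to 0.141).

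**Figure D3:**
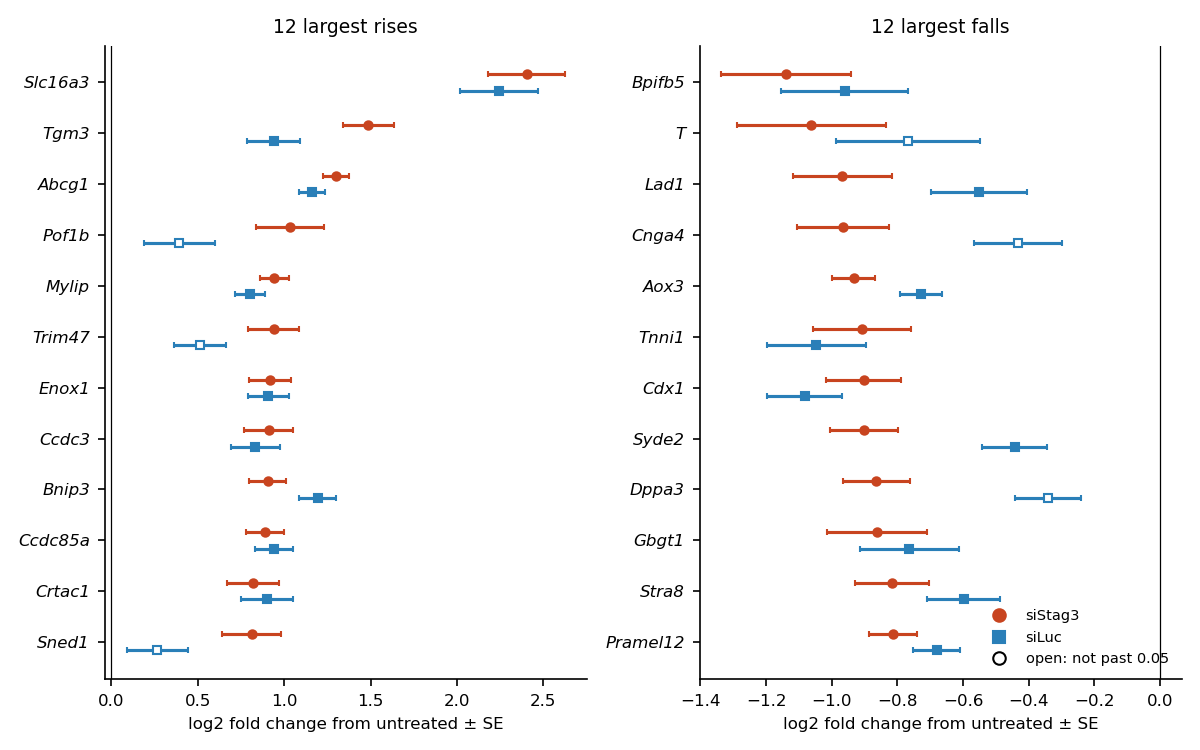
Log2 fold changes from untreated cells, with SE, of the 12 largest rises (left) and falls (right) in siStag3 cells, with the siLuc value of the same gene beside each. Filled symbols passed an adjusted p of 0.05, and both values share the 3 untreated libraries. Tgm3, Pof1b, Syde2 and Dppa3 lie farther from 0 in siStag3 than in siLuc cells, and Bnip3, Tnni1 and Cdx1 nearer to it, but no gene plotted passed in siStag3 against siLuc.

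Within the sets the called LXR, hypoxia, glycolysis and Wnt genes kept their direction, which their calling over both sets together favours. For Abcg1 the difference in mean log2 CPM was 1.34 in Set 1 and 1.22 in Set 3, for Slc16a3 2.50 and 2.34, and for Lef1 -0.68 and -0.58. The Wnt feedback genes differed more in Set 1 than in the single library pair of Set 3, with -0.60 and -0.30 for Axin2, -0.74 and -0.36 for Sp5 and -0.85 and -0.38 for Apcdd1, although the edgeR test of the difference between the sets passed for none of the 361 genes, and at an unadjusted p under 0.05 for 31 of them.

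**Figure D4:**
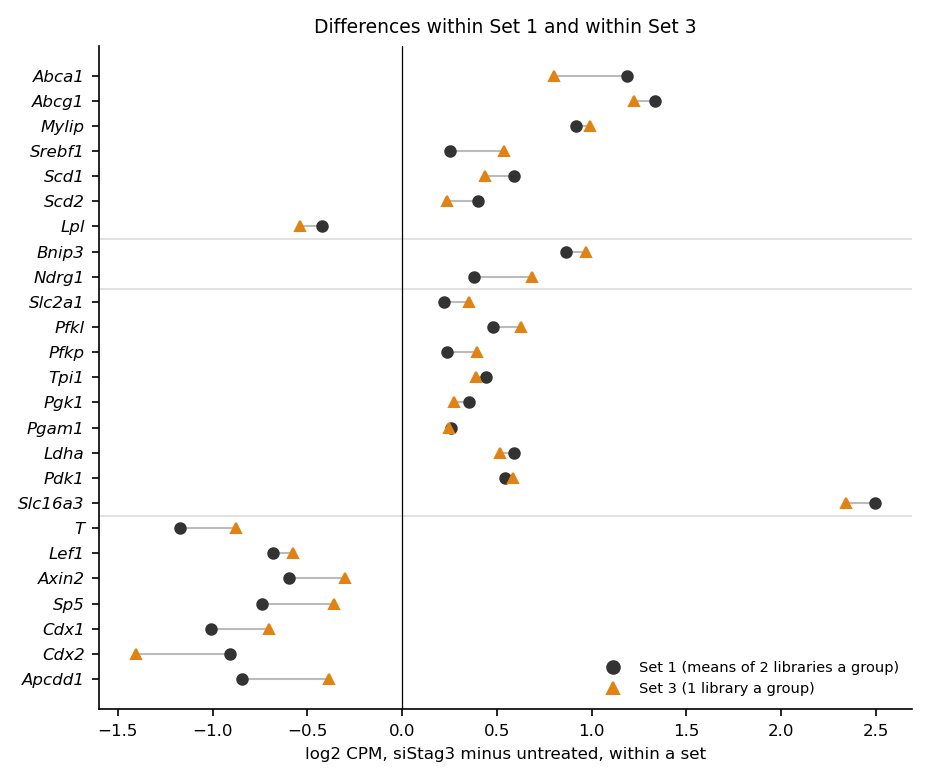
Difference in log2 CPM of siStag3 minus untreated within Set 1 (circles, means of 2 libraries a group) and within Set 3 (triangles, 1 library a group) for each LXR, hypoxia, glycolysis and Wnt target past the threshold; grey rules separate the lists. Every pair lies on 1 side of 0, which the calling of genes over both sets together favours.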

How the data were processed

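The authors deposited 1 table of raw counts per gene, with 1 column for each of 9 libraries. The submitters' processing notes name FastQC, Salmon, DESeq2 and the build GRCm39, without saying which step made the table. The strand setting is not given in the sources used here. The table lists 16636 genes (8 rows have no symbol), and no row sums to fewer than 9 counts. Libraries were prepared with a KAPA mRNA kit from total RNA, per the labels' protocols. Columns name the group, a set and an experiment, but not the replicate numbers of the sample titles. Nothing says that the replicates come from separate cultures, so p-values measure the spread between these samples.

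Genes were tested in R 4.3.3 with edgeR 4.0.16 (robust quasi-likelihood F test, TMM factors, filterByExpr). The model held the 3 groups and, additively, the set, over all 9 libraries. Two-sided p-values received Benjamini-Hochberg adjustment across 14246 genes, with a threshold of 0.05. An SE is the size of the log2 fold change over the square root of F, and CPM use the TMM factors. GC content of 16604 gene IDs came from GENCODE M21 and was corrected in 20 bins. Promoter windows came from RefSeq (GRCm38.p6).

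The members, the 34 function lists and the 5 lists of other cell types were chosen with earlier results of these data known, so list counts are descriptions. Always named were Stag3, Stag1, Stag2, Abcg1, Mylip, Tgm3 and T, with the 12 largest rises and falls by the rule given with their plot, and called members of each list. Other genes were named with their values known. The untreated and siStag3 libraries carry the same experiment numbers, whose meaning the labels do not give. For like numbers, deviations from the group means correlated at 0.403, 0.847 and 0.881 over 9060 genes. The offset between the sets enters these values, and pairs of unlike set correlated between -0.874 and -0.301. Within Set 1 the pairs of unlike number correlated at 0.168 and 0.778, so pairing by number was not settled. The difference of experiments 1 and 3 within Set 1 correlated at 0.321 between untreated and siStag3 libraries. That difference in siLuc correlated at -0.369 with untreated and -0.204 with siStag3 libraries. The alternatives were another normalization, filter, test, set of libraries or GC correction, the experiment as a block, and each library left out in turn. The 95% intervals come from the same SE and so include the spread between libraries, and the floor of 3 counts covers counting error only.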

Additional observations from a re-analysis of the deposited data

Results flagged for a closer look

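The difference between siStag3 and untreated cells was itself different in Set 3 and Set 1 for 1 gene, Gm2026, by an edgeR interaction test over 14246 genes. Gm2026 stood at 4.49, 5.08 and 4.85 CPM in the untreated libraries (Set 1 experiment 1, Set 1 experiment 3 and Set 3), at 5.70, 5.22 and 7.91 in siLuc and at 5.54, 6.65 and 0.990 in siStag3 libraries. The log2 difference of siStag3 and untreated cells was 0.35 within Set 1 and -2.29 within Set 3, and the interaction was -2.64 (adjusted p = 0.0265). It rests on the single Set 3 library of siStag3, and Gm2026 did not pass in siStag3 against untreated cells over both sets. At an unadjusted p under 0.05 the same test passed 1291 genes.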

How the results depend on the processing

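The siStag3 against untreated calls, 361 in the main test, were within 1.5 times of it (301 to 415) with DESeq2 size factors, total-count scaling, no filter, a filter at a mean of 50 counts, the 6 libraries alone, a non-robust fit and the DESeq2 Wald test. They were 2 without the set, 949 in Set 1 alone, 932 with the GC correction and 31 with a 2-fold minimum, and leaving out 1 library gave 78 to 1591. Of the 361, 357 remained with the GC correction, 330 with DESeq2, 300 in Set 1 and 340 without the Set 3 library of siStag3. For siLuc against untreated, 598 calls became 1 without the set, 298 in Set 1, 1016 with the GC correction, 1328 with DESeq2, 23 with the 2-fold minimum, and 111 to 2458 without 1 library. For siStag3 against siLuc, 4 calls became 0 without the set (307 genes had an unadjusted p under 0.05), 22 with DESeq2, 51 with the GC correction, 0 with the 2-fold minimum (49 unadjusted), and 0 to 4 without 1 library. The set interaction gave 2 genes with the GC correction and 0 with the non-robust edgeR fit (1260 unadjusted). The causes were not tested.

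With the experiment as a replicate block and the set, siStag3 against untreated gave 352 calls, siLuc against untreated 86 and siStag3 against siLuc 2. Over the 6 libraries compared, a block chosen after the data were seen gave 306 calls, and 1410 together with the GC correction. The block with the set took the call from Sesn1, Ddx4 and Cox6b2 (adjusted p 0.063, 0.0555 and 0.0662) and from no other named gene; over the 6 libraries compared it took those and Slc7a3 (0.0593) and Plin2 (0.0574).

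Stag3 was at -0.80 without the set (adjusted p = 0.0604), past the threshold no longer, and passed in every other alternative. Stag1, at 0.02 and not past the threshold, changed sign to -0.023 with total-count scaling, to -0.066 with the GC correction with and without the block, and ran from -0.011 to 0.11 without 1 library (-0.0045 and -0.0009 among the values). Notum, at -0.036 in siStag3 cells and not past the threshold, changed sign to 0.0060 without the set, 0.061 with the GC correction and 0.063 with it and the block, and ran from -0.16 to 0.027 without 1 library (0.0064 and 0.024 among the values). Over 88 named genes and 22 alternatives, 1642 values kept their side of the threshold, 267 lost it, 11 gained it and 12, those of Stag1 and Notum, changed sign. Among fits without 1 library, most calls were lost without siStag3 Set 1 experiment 1 (43) or untreated Set 3 (42). Levels near 0.065 to 0.099 CPM are limited by depth.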
